A study of Canis lupus familiaris with 12 samples.

Results

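The miR-99/100 and miR-125 families were followed in CHMm, cells of a dog's mammary gland tumor taken from its metastasis and grown as a line, and in CHMmTAM, the TAM-resistant line derived from it. TAM is tamoxifen, a drug that blocks the estrogen receptor. Members were the rows of the deposited miRNA count table named cfa-miR-99a, cfa-miR-99b, cfa-miR-100, cfa-miR-125a and cfa-miR-125b, where cfa stands for the dog and is left out from here on. 4 of these 5 names were found among the 453 miRNAs read from the table, and miR-100 was not analysed here. All 4 passed the filter of at least 10 counts over the 6 libraries and belong to the 284 miRNAs tested. CHMmTAM was selected with rising TAM over 10 months until the cells proliferated at 10 μM, was kept at 10 μM for 1 month and was then cultured for 1 week without the drug. The study's methods name 4-hydroxytamoxifen as the form added to the medium. Both lines were grown in phenol-red-free medium with steroid-depleted serum. Each line gave 3 small RNA libraries, and neither the labels nor the study's methods state that they came from separate cultures. The p-values therefore measure the spread between these libraries, with variances drawn in part from all tested miRNAs. All resistant libraries come from 1 resistant line, so resistance and other differences between the 2 lines cannot be told apart. The RNA-seq samples of the series were not analysed here.

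MicroRNAs are short RNAs that guide Argonaute proteins to messenger RNAs and lower their output, and the bases near the 5′ end, the seed, do most of the target recognition. miR-99a, miR-99b and miR-100 form one seed family, which is known for targets in the mTOR and insulin-like growth factor pathways. miR-125a and miR-125b form another, the mammalian relatives of the worm gene lin-4, and are known to repress ERBB2, ERBB3 and LIN28. In mammals these families lie with let-7 genes in copies of one ancestral cluster, so that a miR-99/100 gene, a let-7 gene and a miR-125 gene are neighbours at each copy. let-7 miRNAs are known as repressors of RAS and HMGA2.

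The RefSeq genes of the dog assembly UU_Cfam_GSD_1.0, used only for names and neighbours, place MIR99B, MIRLET7E and MIR125A side by side. MIR99B and MIR125A are the only genes of that table named for miR-99b and miR-125a, so each of these counts points to 1 locus. miR-99a and miR-125b have 2 genes each. MIR99A-1 lies with MIRLET7C and MIR125B-2, and MIR99A-2 lies with MIRLET7A-2 and MIR125B-1. In other mammals the gene beside this let-7a and miR-125b pair is miR-100. The counts of miR-99a and miR-125b therefore cannot be divided between their loci, and whether reads of a miR-100 sequence were counted as miR-99a was not tested. Mature sequences were not used here. The primer that the study lists for its qRT-PCR of miR-125 has a label without the letter a or b. Which member its sequence matches was not tested here, and its 25 bases read as follows.
miR-125 primer: ctttaacctgtgaggacatccaggg

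The libraries held from 7512659 to 12482211 counts, and miR-21 took from 50.2% to 54.5% of them. Replicate libraries differed beyond sampling noise, with 26.3 to 85.8 as the chi-square divided by its degrees of freedom, so each was kept as a library of its own. The epithelial miRNAs fixed as markers (miR-200a, miR-200b, miR-200c, miR-141, miR-429, miR-203 and miR-205) were all listed, and summed to between 24457 and 26853 CPM (counts scaled to a common library size) in CHMm and between 21958 and 23739 CPM in CHMmTAM. Each list for another cell type summed to less than the epithelial one in both lines. The 6 blood markers gave 4.99 to 6.12 CPM in CHMm and 12.2 to 15.0 CPM in CHMmTAM, and the 6 muscle markers, 1 of them without a count in any library, gave 281 to 305 CPM and 415 to 429 CPM. The 4 mesenchymal markers gave 38.6 to 48.3 CPM and 23.8 to 28.1 CPM, the 2 neural markers 1087 to 1120 CPM and 1016 to 1092 CPM, and the liver marker miR-122 1.47 to 3.32 CPM and 2.48 to 4.55 CPM. The endothelial marker miR-126 had no count in CHMm, which allows up to 0.399 CPM in the shallowest library, and at most 0.271 CPM in CHMmTAM. The sums join unlike changes. In the epithelial list, miR-205 and miR-203 had log2 fold changes of CHMmTAM over CHMm of -0.66 and -0.24. Those of miR-429, miR-200a and miR-200b were 0.36, 0.27 and 0.21, and those of miR-200c and miR-141 were -0.06 and -0.09. Most of the muscle sum was miR-499, at a mean of 283 CPM in CHMm and 395 CPM in CHMmTAM. The part of these differences in the results below was not tested.

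Both members of the miR-99b cluster fell in CHMmTAM to about the same degree, while miR-99a and miR-125b, at log2 fold changes of -0.13 and -0.12, did not pass the test with TMM scaling and passed it as lower under 4 other settings. miR-99b fell 1.99-fold and miR-125a 2.19-fold. In all, 2 of the 4 members were lower at an FDR (Benjamini-Hochberg adjusted p) below 0.05 by edgeR's quasi-likelihood test and 0 were higher, where 18.7% of the 284 tested miRNAs were lower and 25.4% higher. In bulk libraries, fewer cells with a miRNA and less of it per cell cannot be told apart.

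miR-99b had 2667, 2575 and 2773 CPM in the 3 CHMm libraries, after scaling by edgeR's TMM method, and 1412, 1346 and 1277 CPM in the 3 CHMmTAM libraries. All 3 resistant libraries lay far below the parental ones, without overlap. Of the 284 tested miRNAs, 22.9% were lower in CHMmTAM without overlap. The means were 2671 ± 98.8 CPM (SD, n = 3) and 1345 ± 67.5 CPM (SD, n = 3). The log2 fold change was -0.99 (standard error, SE = 0.07, 95% interval -1.12 to -0.86), and edgeR's quasi-likelihood test gave an FDR of 5.16e-44. Without CHMm replicate 1 the same test gave an FDR of 3.13e-08. The exact two-sided permutation test of 3 against 3 gave p = 0.1, the smallest it can give, for miR-99b, miR-125a, miR-125b and let-7e. For miR-99a this permutation test gave p = 0.2.

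miR-125a had 2528, 2643 and 2542 CPM in CHMm and 1189, 1141 and 1192 CPM in CHMmTAM. The lines again did not overlap, and the libraries within a line were close, with a coefficient of variation of 2.45% in CHMm and 2.46% in CHMmTAM. Counting error alone gives 0.646% and 0.897%. The log2 fold change was -1.13 (SE = 0.07, 95% interval -1.26 to -0.999), and edgeR's quasi-likelihood test gave an FDR of 3.11e-55. With the study's further threshold of a log2 fold change above 1 or below -1, miR-125a alone of the 4 members passed in this fit, where 5.28% of the tested miRNAs passed on the lower side. miR-99b sits at that threshold and passed it under 4 other scalings or tools, at values down to -1.23, and narrowly without CHMm replicate 2 (-1.004) or without CHMmTAM replicate 1 (-1.003).

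miR-99a, the miR-99b relative made from the other loci, had 754, 820 and 917 CPM in CHMm and 752, 812 and 710.2 CPM in CHMmTAM. The lines overlapped. Its log2 fold change was -0.13 (SE = 0.07, 95% interval -0.27 to 0.01), and edgeR's quasi-likelihood test gave an FDR of 0.119. It was the least even member, with a coefficient of variation of 9.87% in CHMm against a counting error of 1.14%, and its log2 fold change was -0.06 without CHMm replicate 3 and -0.07 without CHMmTAM replicate 3.

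miR-125b, the most abundant member, had 14459, 14527 and 14817 CPM in CHMm and 13437.5, 14150.2 and 12789 CPM in CHMmTAM. Its 3 resistant libraries lay just below the parental ones, a pattern without overlap that 51.8% of the tested miRNAs showed in either direction and 22.9% on the lower side. The log2 fold change was -0.12 (SE = 0.06, 95% interval -0.24 to 0.01), and edgeR's quasi-likelihood test gave an FDR of 0.124. Without CHMmTAM replicate 3, its lowest library, the log2 fold change was -0.06. With TMM scaling, the intervals of miR-99a and miR-125b leave room for a decrease of up to 16.8% and 15.4% of the parental level. Upper-quartile scaling gave larger decreases, at log2 fold changes of -0.38 and -0.36, so these limits hold for TMM only.

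The calls of miR-99a and miR-125b depended on the scaling. With RLE size factors, upper-quartile scaling, TMM without the 10 most abundant miRNAs and the Wald test of DESeq2, both passed FDR as lower, with log2 fold changes from -0.38 to -0.18. Lower calls also rose over all 284 tested miRNAs, from 53 with TMM to 73, 100, 67 and 66 in the same order of settings. Upper-quartile scaling moved the median of all tested miRNAs from 0.06 to -0.18. Relative to the median, miR-99a was at -0.19 with TMM and -0.19 with upper-quartile scaling, and miR-125b at -0.18 and -0.18. miR-99b was at -1.05 and miR-125a at -1.19 relative to the median under both.

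**Figure D1:**
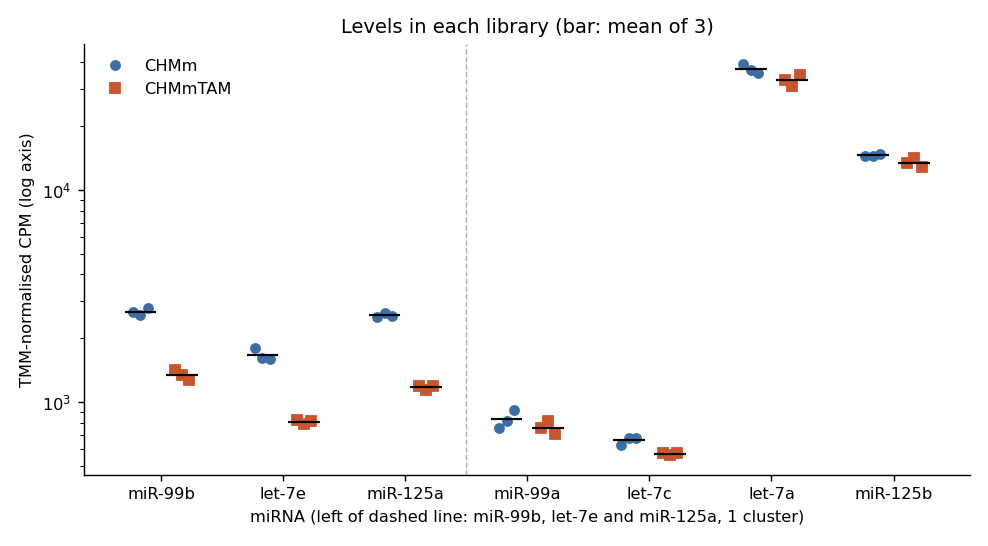
TMM-normalised CPM (log axis) of the 4 members and the let-7 miRNAs of the same clusters, with 1 point per library (circles CHMm, squares CHMmTAM) and a bar at the mean of 3. miR-99b, let-7e and miR-125a, left of the dashed line, drop in CHMmTAM with no overlap (miR-99b from 2671 to 1345 CPM), while miR-99a overlaps between the lines and miR-125b shifts from 14601 to 13459 CPM.

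The highest level was that of miR-125b, at 14601 ± 189.9 CPM (SD, n = 3) in the parental line and 13459 ± 681 CPM in the resistant one, ranks 13 and 12 among the 284 tested miRNAs. Next in CHMm came miR-99b at rank 30 and miR-125a at rank 33, whose libraries overlapped, so that their order there is not beyond the spread. In CHMmTAM they held ranks 43 and 44, and the lowest miR-99b library, at 1277 CPM, lay above the highest of miR-125a, at 1192 CPM. miR-99a was lowest in both lines, at ranks 53 and 58. A read counts as 1 molecule here whatever its length, and levels of different miRNAs also carry the unequal ligation and amplification of their sequences. The 4 members together made up 2.07% ± 0.0763 (SD, n = 3) of the parental counts and 1.67% ± 0.0969 of the resistant ones.

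let-7e, the third gene of the miR-99b cluster, had 1801, 1623 and 1593 CPM in CHMm and 824, 792 and 816 CPM in CHMmTAM. It fell 2.06-fold, with no overlap between the lines and a log2 fold change of -1.04 (SE = 0.07; FDR of 1.04e-46 in edgeR's quasi-likelihood test). The 3 miRNAs of this cluster thus had log2 fold changes within 0.14 of each other, and together went from 0.692% ± 0.0103 (SD, n = 3) of the parental counts to 0.333% ± 0.0155 of the resistant ones. The let-7 miRNAs of the other clusters changed far less. The level of let-7c was 630.5, 676 and 678 CPM in CHMm and 575, 563 and 575 CPM in CHMmTAM, a log2 fold change of -0.21 (SE = 0.07; FDR of 0.00659 in edgeR's quasi-likelihood test). let-7a, which a second locus beside MIRLET7B also makes, had a log2 fold change of -0.18 (SE = 0.06, FDR of 0.0092 in the same test). Its FDR was 0.106 without CHMm replicate 1, 0.0523 without CHMm replicate 2 and 0.0781 without CHMmTAM replicate 2.

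Of the 7 other names of the let-7 family fixed for comparison, 6 were tested here (let-7b, let-7d, let-7f, let-7g, let-7j and miR-98). 1 was lower at FDR below 0.05, let-7b at a log2 fold change of -0.32, and 1 was higher, let-7g at 0.23. The remaining 4 did not pass, and the range of the 6 was from -0.32 to 0.23 with a median of 0.10, beside a median of 0.06 over all 284 tested miRNAs. let-7e lay outside this range.

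**Figure D2:**
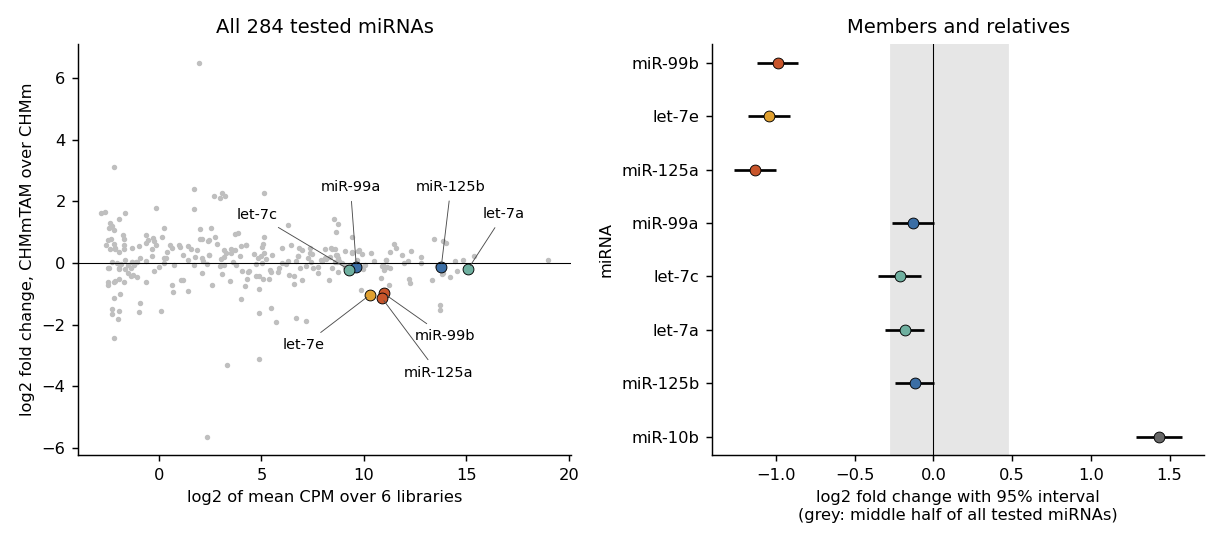
Left, log2 fold change of CHMmTAM over CHMm against log2 mean CPM for the 284 tested miRNAs (grey), with the members and their let-7 neighbours coloured; right, the same log2 fold changes with 95% intervals, the grey band spanning the lower to the upper quartile of all tested miRNAs (-0.27 to 0.47). miR-99b (-0.99), let-7e (-1.04) and miR-125a (-1.13) lie below the band, the miRNAs of the other clusters lie inside it and miR-10b (1.43) lies above it.

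Whether the loci differed was tested on the ratio of 2 miRNAs within each library, in which library size and scaling cancel. The difference between the lines in the log2 ratio was fitted with limma for all miRNAs against a fixed reference miRNA. 8 pairs were compared, and the planned pairs with miR-100 were not analysed here.

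The count of miR-99a relative to miR-99b was 0.283, 0.318 and 0.331 in CHMm and 0.533, 0.604 and 0.556 in CHMmTAM. All 3 resistant values lay above the parental ones. The log2 ratio was higher by 0.86 in CHMmTAM (SE = 0.09, 95% interval 0.69 to 1.04, FDR = 1.4e-12 from limma), a 1.82-fold shift. Since miR-99b fell, 72.8% of the 283 other miRNAs rose against it by the same test.

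The count of miR-125b relative to miR-125a was 5.72, 5.50 and 5.83 in CHMm and 11.3, 12.4 and 10.7 in CHMmTAM. This ratio rose in every resistant library, by 1.01 on the log2 scale (SE = 0.07, 95% interval 0.87 to 1.16, FDR = 8.61e-40 from limma), a 2.02-fold shift, where 75.3% of miRNAs rose against miR-125a. The let-7 neighbours gave like values. The log2 ratio of let-7c to let-7e was higher by 0.83 (95% interval 0.65 to 1.02, FDR = 4.25e-07 from limma), and that of let-7a to let-7e by 0.86 (95% interval 0.73 to 0.99, FDR = 6.05e-09 from limma), where 72.8% of miRNAs rose against let-7e. For each of these 4 ratios the exact two-sided permutation test of 3 against 3 gave p = 0.1, the smallest it can give. The size of the FDRs depended on limma's variance trend across miRNAs. Fitted without it, limma gave FDRs of 0.000602 for miR-99a to miR-99b and 0.000144 for miR-125b to miR-125a. For let-7c and let-7a to let-7e they were 0.000734 and 0.000201.

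The ratios within a cluster did not pass the test. miR-125a relative to miR-99b was 0.948, 1.03 and 0.917 in CHMm and 0.842, 0.848 and 0.933 in CHMmTAM, which overlapped. The difference in log2 ratio was -0.14 (95% interval -0.31 to 0.03, FDR = 0.123 from limma). For let-7e relative to miR-99b it was -0.05 (95% interval -0.22 to 0.12, FDR = 0.569 from limma), and relative to miR-125a 0.09 (95% interval -0.06 to 0.24, FDR = 0.267 from limma). Without CHMm replicate 1, which has the highest let-7e level, the last difference was 0.15 and passed, with an FDR of 0.0448 from limma. miR-125b relative to miR-99a, both made from the other loci, ranged from 16.2 to 19.2 in CHMm and from 17.4 to 18.0 in CHMmTAM, with a difference of 0.01 (95% interval -0.26 to 0.28, FDR = 0.987 from limma), where 40.3% of miRNAs passed against miR-99a in either direction. These intervals still allow unequal changes of up to about the size of their bounds.

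**Figure D3:**
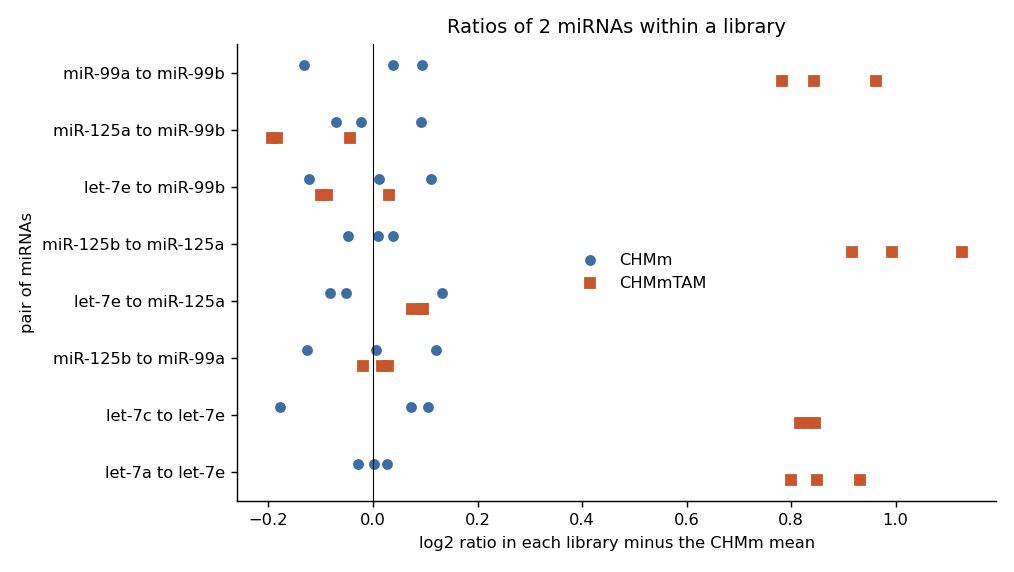
Log2 ratio of 2 miRNAs in each library minus the CHMm mean of that ratio, for 8 pairs (circles CHMm, squares CHMmTAM). The 4 pairs that set another locus against the cluster of miR-99b, let-7e and miR-125a lie from about 0.8 to 1.1 in CHMmTAM with no overlap, and the 4 pairs within a cluster or among the other loci overlap.

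The makeup of the miR-99a and miR-99b pair and of the miR-125a and miR-125b pair changed with these shifts. The first pair leaves out miR-100, which was not analysed here, so it is not the whole seed family. miR-99b made up 78.0%, 75.9% and 75.2% of the miR-99a and miR-99b counts in CHMm and 65.2%, 62.4% and 64.3% in CHMmTAM, so it remained the larger part in every library. miR-125a made up 14.9%, 15.4% and 14.6% of the miR-125a and miR-125b counts in CHMm and 8.13%, 7.46% and 8.53% in CHMmTAM. The sums of the pairs moved unequally, as the falling miRNA is the larger part of the miR-99 pair and the smaller part of the miR-125 pair. miR-99a and miR-99b summed to 3503 ± 164 CPM (SD, n = 3) in the parental line and 2103 ± 100.1 CPM in the resistant one, a log2 fold change of -0.74. miR-125a and miR-125b summed to 17228 ± 98.3 CPM and 14585 ± 649 CPM, a log2 fold change of -0.24. These sums are given as descriptions, since their members were chosen with earlier results known. Reads that fit both members of a family could have been counted for either, which was not tested.

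**Figure D4:**
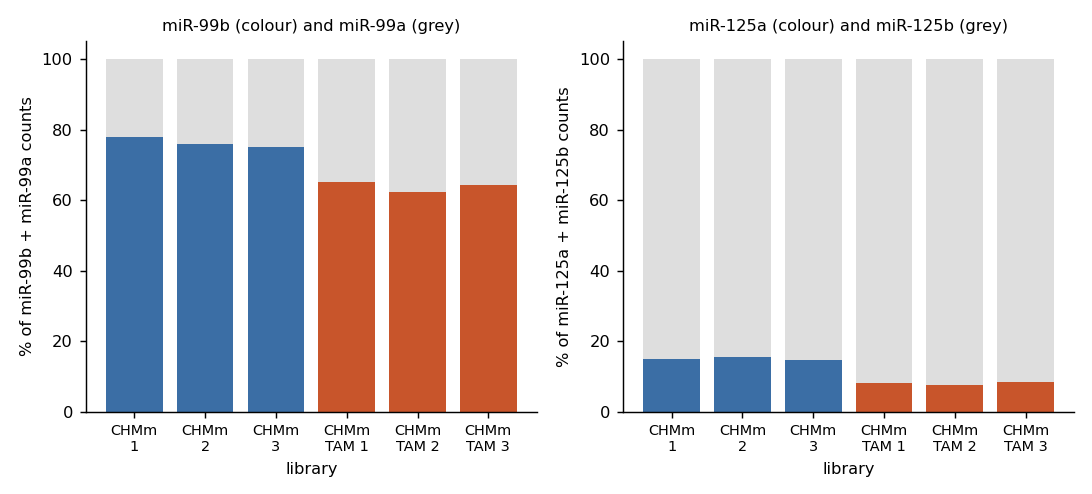
Share in percent of miR-99b in the miR-99a and miR-99b counts (left) and of miR-125a in the miR-125a and miR-125b counts (right), 1 bar per library, with the other member in grey. The coloured share falls from between 75.2% and 78.0% to between 62.4% and 65.2% on the left, and from between 14.6% and 15.4% to between 7.46% and 8.53% on the right.

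The miR-10 family, which is close in sequence to miR-99/100, moved the other way. miR-10b, whose gene lies in a HOX cluster, had 194, 206 and 209 CPM in CHMm and 504, 575 and 567 CPM in CHMmTAM, a log2 fold change of 1.43 (SE = 0.07; FDR of 1.37e-70 in edgeR's quasi-likelihood test). miR-10a had 1, 12 and 8 counts in CHMm and 24, 12 and 16 counts in CHMmTAM, a log2 fold change of 1.12 (FDR = 0.0302 from the same test). This call of miR-10a was lost in 7 of the other settings, among them those without CHMm replicate 1 (0.75), CHMmTAM replicate 1 (1.00) or CHMmTAM replicate 3 (1.02).

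Among the 113 other miRNAs with a mean of at least 50 CPM, those whose log2 CPM over the 6 libraries was most like the mean of miR-99b and miR-125a were miR-222 (Pearson's r = 0.997), miR-205 (0.996) and miR-221 (0.995), with let-7e at rank 6 (0.992). Their log2 fold changes were -1.36, -0.66 and -1.52. The 6 points share the contrast between 2 lines, so any miRNA with a clear decrease comes out high. Most like the mean of miR-99a and miR-125b were miR-197 (0.882), miR-193a (0.850) and miR-27a (0.849). Between the members themselves, r was 0.991 for miR-99b and miR-125a, 0.807 for miR-99a and miR-125b, 0.582 for miR-99a and miR-99b and 0.786 for miR-125a and miR-125b.

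Set beside other genomic clusters, the cluster of miR-99b, let-7e and miR-125a was among the lowest. The tested miRNAs with 1 gene in the RefSeq table formed 27 clusters of neighbours less than 10000 bases apart in that assembly. By median log2 fold change this cluster ranked 3 from the lowest, at -1.04. Below it were miR-221 with miR-222, at -1.44, and miR-379 with miR-411 and miR-494, at -1.56, of which 1 of 3 passed FDR. The least abundant miRNA of that last cluster averaged 0.255 CPM over the 6 libraries, against 1241 CPM for the least abundant of the miR-99b cluster. In 3 of the 27 clusters all members were lower at FDR below 0.05, namely miR-221 with miR-222, miR-195 with miR-497, and miR-99b with let-7e and miR-125a. All members were higher at the same FDR in 5 clusters.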

How the data were processed

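The authors deposited a table of raw, not normalized read counts with a row for each canine miRNA and a column for each library. The submitters' processing notes name the genome build CanFam3.1 and the tools HISAT2 2.0.4 and BWA without saying which served the small RNA libraries. How adapters were trimmed, which read lengths were kept, which miRNA database was used and how reads matching more than 1 miRNA were counted are not given in the sources used here. These steps could move counts between close relatives such as miR-125a and miR-125b. Libraries were assigned to lines and replicate numbers from their titles.

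miRNAs with at least 10 counts in total were tested with edgeR 4.0.16 in R 4.3.3 (TMM factors, quasi-likelihood test, no block), with Benjamini-Hochberg adjustment over 284 miRNAs. The coefficient and its F statistic gave the standard errors and 95% intervals. The variance of each miRNA was moderated over all tested miRNAs, so an interval does not rest on its own replicates alone. Log2 ratios of 2 miRNAs, with 0.5 added to each count, were fitted with limma 3.58.1 (variance trend) for all miRNAs against each reference and adjusted over 283. On 10 simulated sets of CHMmTAM against CHMm with 60 of 284 miRNAs changed, the edgeR fit called 77.1% of those changed by 1 and 93.1% of those changed by 2 on the log2 scale, and 0.598% of the unchanged. The ratio fit called 77.7%, 95.2% and 2.44%.

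Depth ranged from 7512659 to 12482211 counts per library, where 3 counts correspond to 0.24 to 0.399 CPM, a limit for counting error only. Alternatives were RLE, upper-quartile, library totals, TMM without the 10 most abundant miRNAs, DESeq2 1.42.0, limma-voom, other filters, a replicate block, each library left out, summed relatives and, for ratios, no trend or 5 added counts. The sum of miR-99a and miR-99b was chosen after seeing the data. The text names all members, their cluster partners, the other let-7 miRNAs, the miR-10 family and the cell type markers. It also names the 3 miRNAs of most similar profile for each pair of members, miR-21, and miRNAs of other genomic clusters. The ranking of genomic clusters was not among the planned results. The members and lists were chosen with earlier results of these data known. Tables and plots used Python 3.11.15 with pandas 2.3.3, NumPy 2.4.6 and Matplotlib 3.10.9.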

Additional observations from a re-analysis of the deposited data

How the results depend on the processing

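The decreases of miR-99b and miR-125a and the 4 ratios across loci kept their direction and passed FDR under every alternative. miR-99b ranged from -1.23 to -0.94 and miR-125a from -1.37 to -1.10. The calls of miR-99a and miR-125b, which did not pass with TMM, were gained with RLE size factors (-0.19 and -0.18), upper-quartile scaling (-0.38 and -0.36), TMM without the 10 most abundant miRNAs (-0.19 and -0.18) and DESeq2 (-0.19 and -0.18). The cause was not tested. Both stayed below 0 in every setting. Summed with its relative, the log2 fold change was -0.24 for miR-125b with miR-125a and -0.74 for miR-99a with miR-99b. Members past FDR and the fold threshold numbered 1 with TMM and 1 to 2 when a library was left out. They numbered 2, with miR-99b added, under RLE, upper-quartile scaling, TMM without the 10 most abundant miRNAs and DESeq2. Over all 284 tested miRNAs, those past both on the lower side numbered 15 with TMM and 18, 22, 15 and 15 in these 4 settings. Without a library, the difference in log2 ratio of let-7e to miR-125a ranged from 0.047 to 0.154. Upper-quartile scaling raised the lower miRNAs at FDR below 0.05 from 53 to 100.

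Equal replicate numbers are not stated to mark a shared culture, and the deviations of same-numbered libraries correlated at 0.06, 0.46 and -0.31. With the replicate number as a block, the log2 fold changes of miR-99b and miR-125a were -0.99 and -1.13, those of miR-99a and miR-125b -0.13 and -0.12, and 126 miRNAs passed FDR against 125. The block changed no call of a member or of a ratio. Summing miR-99a with miR-100 was not run.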
